A study of Mus musculus with 6 samples.

Results

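Replication protein A (RPA) and the other single-stranded DNA (ssDNA) binding proteins were followed in oocytes that lack Rpa1. The set held the 3 RPA subunit genes (Rpa1, Rpa2, Rpa3), the meiotic RPA-like partners Meiob and Spata22, the SOSS complex genes Nabp1, Nabp2 and Ints3, and the mitochondrial Ssbp1. They were chosen by gene name for their function, with earlier results of these data known, and make up 9 of the 49315 genes counted. A gene was tested where it passed a filter on low counts, which 16060 genes did, 7 of these 9 among them.

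RPA coats ssDNA exposed during replication, repair and meiotic recombination, protects it from nucleases and recruits checkpoint and recombination proteins. In meiosis, MEIOB and SPATA22 form a complex that binds RPA and is needed to complete recombination in prophase. NABP1 and NABP2 are alternative ssDNA-binding subunits of SOSS, a complex held together by INTS3, and SSBP1 covers the displaced strand of replicating mitochondrial DNA.

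RNA was sequenced from fully grown germinal vesicle (GV) oocytes, the stage that is arrested in prophase with an intact nucleus. The 3 OcKO mice lacked Rpa1 in oocytes by conditional deletion, and the 3 others were labelled Control. All 6 females were 4 to 5 weeks old and had been primed with PMSG, a gonadotropin that stimulates follicle growth. Each library came from 1 mouse and about 20 oocytes stripped of cumulus cells. Nothing on the Cre driver, the deleted exons or the alleles of the Control mice is given in the sources used here. The question asked of these genes was whether any other ssDNA-binding gene is higher in oocytes where Rpa1 is lost.

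Total counts were 36280148 to 44575222 per library in OcKO and 36612443 to 41402926 in Control. OcKO libraries held a count for 19915 to 22393 genes and Control libraries for 18330 to 19351. The scaling factors that edgeR gave (TMM) were 1.02 to 1.12 in OcKO and 0.917 to 0.964 in Control. Detection and scaling therefore moved with genotype, and their part in the differences below was not tested, beyond the fit with no scaling factor. The 12 oocyte markers, such as Gdf9 and Zp3, summed to 32335 to 42889 CPM (counts scaled to library size) in OcKO and to 36958 to 55892 CPM in Control. The 13 granulosa and cumulus markers summed to 97.0 to 131 CPM in OcKO and 61.0 to 107 CPM in Control. Of these, Inha, Nr5a2 and Cyp19a1 stood at 9.26 to 44.5 CPM in OcKO and 10.4 to 33.7 CPM in Control. Inha alone held 1309, 443 and 1615 counts in OcKO and 554, 455 and 380 in Control. Ptgs2 held 0, 262 and 89 counts in OcKO and 1, 0 and 4 in Control. Has2 held 195, 90 and 0 counts in OcKO and 0 in each Control library. Foxl2, which defines granulosa cells, held 2, 0 and 2 counts in OcKO and 0 in each Control library. Of the 8 granulosa and cumulus markers tested, 5 had positive and 3 negative log2 fold changes (median 0.61), and edgeR called 0. The 8 blood and immune markers summed to 1.26 to 8.71 CPM in OcKO and 4.23 to 12.5 CPM in Control, and the 9 markers of stroma and endothelium to 99.4 to 130 CPM in OcKO and 79.3 to 125 CPM in Control. Most of the last sum was Pecam1 (84.1 to 128 CPM in OcKO and 67.5 to 119 CPM in Control), and its theca marker Cyp17a1 held 20, 29 and 31 counts in OcKO and 0 in each Control library. The part of these markers in the differences below was not tested. The marker values here are CPM before TMM scaling, as are the CPM floors given below, and all other CPM values are TMM-scaled.

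Rpa1 was the only one of the 7 tested genes to pass the test. It fell to a residual level in every OcKO library, while Rpa2 and Rpa3, the partners of RPA1 in the trimer, did not pass the test. None of the other 4 tested genes passed it either. The 4 had positive differences, the smallest for Nabp2 and the largest for Nabp1 and Ssbp1. Meiob and Spata22, at or near 0, fell under the filter on low counts.

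Upstream sequence is shown for the deleted gene, for Rpa2, the most abundant of the set, and for Nabp1 and Ints3 as SOSS genes. It precedes annotated starts, and the starts used in these oocytes were not measured. The sequences are from RefSeq (GRCm38.p6), read 5′ to 3′ on the strand of the gene. Each is the stretch of the 250 bases before the RefSeq start that lies outside every exon of the deposited gene models. Capitals mark matches to 3 short motifs, searched on both strands: CCGGAAG, the core bound by ETS factors, CGCANGCG, the core bound by NRF1, and TTTGGCGC or TTTCCCGC, bound by E2F factors. The regions are chr11:75348384-75348432 on the minus strand for Rpa1, chr4:132768110-132768331 on the plus strand for Rpa2, chr1:51478426-51478649 on the minus strand for Nabp1, and chr3:90433637-90433886 on the minus strand for Ints3.
Rpa1: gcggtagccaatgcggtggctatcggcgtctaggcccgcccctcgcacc
Rpa2: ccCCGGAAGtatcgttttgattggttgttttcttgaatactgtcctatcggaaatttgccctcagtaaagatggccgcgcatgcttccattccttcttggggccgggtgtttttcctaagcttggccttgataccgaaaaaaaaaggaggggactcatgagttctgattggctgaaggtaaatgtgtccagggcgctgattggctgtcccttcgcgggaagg
Nabp1: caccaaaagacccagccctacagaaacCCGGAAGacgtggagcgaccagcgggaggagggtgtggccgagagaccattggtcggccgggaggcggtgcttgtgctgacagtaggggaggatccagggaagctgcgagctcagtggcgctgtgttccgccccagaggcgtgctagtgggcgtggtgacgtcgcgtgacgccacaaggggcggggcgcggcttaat
Ints3: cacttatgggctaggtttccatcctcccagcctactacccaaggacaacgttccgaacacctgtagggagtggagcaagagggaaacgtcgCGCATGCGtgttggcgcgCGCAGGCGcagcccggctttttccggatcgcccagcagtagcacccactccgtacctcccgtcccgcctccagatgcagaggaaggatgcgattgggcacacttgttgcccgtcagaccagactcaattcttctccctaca

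The Rpa1 stretch is short, because 201 of its 250 bases lie in exons of Smyd4, which starts 109 bases away on the opposite strand. Windows were found for 8 of the 9 genes, Meiob being the one without. Over the whole 250 bases, an ETS match stood in the windows of Rpa2 (1), Nabp1 (1), Ssbp1 (1) and Rpa3 (3, of which 2 overlap), and in none of those of Rpa1, Ints3, Nabp2 and Spata22. NRF1 matches stood in the windows of Ints3 (2) and Spata22 (2) only, among these 8, and E2F matches in none. Across 32851 windows of the same length, 6.91% held an ETS match, 6.76% an NRF1 match and 1.30% an E2F match. The Rpa1 window had 68.0% G and C and that of Rpa2 50.0%, against a median of 52.4% over all windows.

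Rpa1 encodes the large subunit of RPA, which carries most of its DNA-binding domains. The gene lies at chr11:75298166-75348324 on the minus strand (GRCm38), in 19 merged exon blocks. OcKO libraries held 340, 188 and 278 Rpa1 counts, and Control libraries 5640, 5885 and 4860. As CPM these were 7.75, 4.13 and 6.83 in OcKO (mean 6.24 ± 1.88, SD, n = 3) and 155, 155 and 139.8 in Control (150.0 ± 8.84). Every OcKO library lay far below every Control library. Rpa1 fell by 4.59 on the log2 scale (SE 0.31, 95% interval -5.30 to -3.87, edgeR adjusted p = 0.0064), to 0.0416 of the Control level. The counts cover the whole gene, exons outside the deleted part included. In pooled oocytes, fewer cells that express a gene and less of its RNA per cell cannot be told apart. In edgeR 0.143% of the tested genes were called at an adjusted p under 0.05, 23 genes in all. All OcKO libraries lay below all Control libraries for 8.67% of tested genes, and of the 7 tested genes of this set for Rpa1 alone. The call was lost without OcKO replicate 3 (adjusted p = 0.0959), Control replicate 2 (0.0526) or Control replicate 3 (0.0588), with log2 fold changes of -4.66, -4.53 and -4.61. It was also lost with the replicate number as a block (log2 fold change -4.63, edgeR adjusted p = 0.159).

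**Figure D1:**
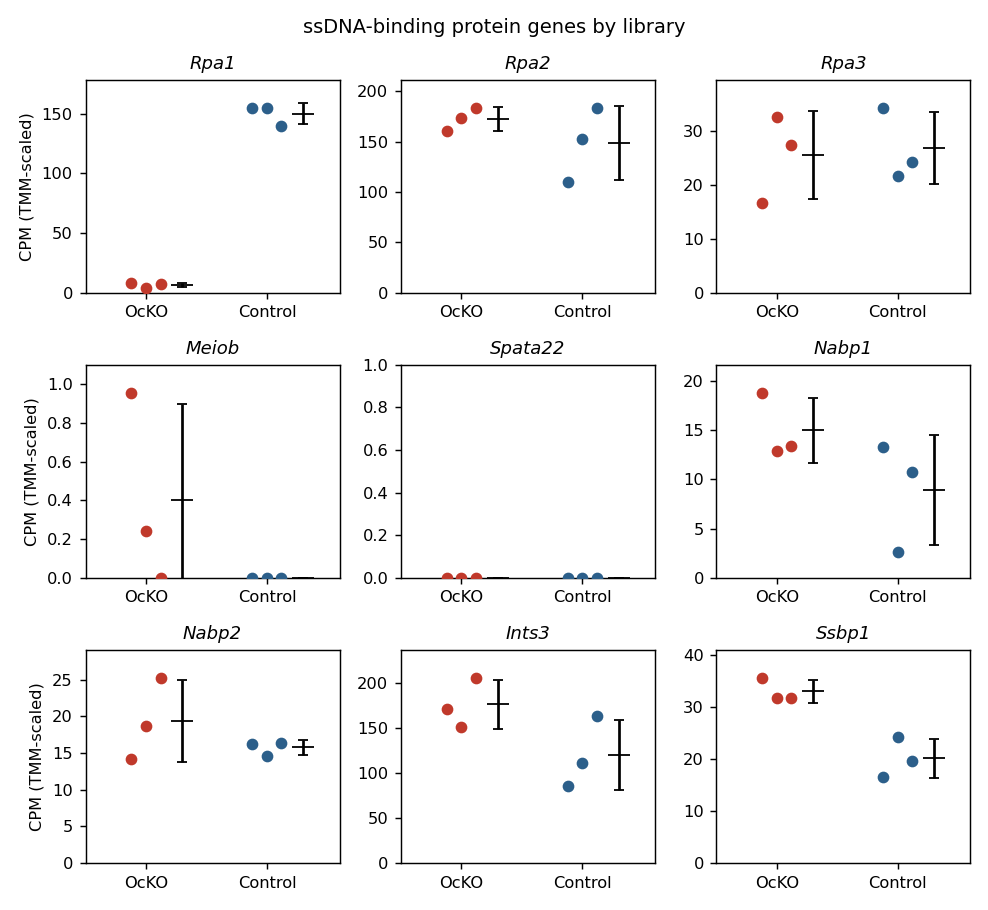
CPM of the 9 ssDNA-binding protein genes in each library (points, OcKO left and Control right, TMM-scaled, vertical axis starting at 0 with its own range for each gene), with mean and SD beside them (n = 3, bars shown down to 0). Rpa1 stands at 4.13 to 7.75 CPM in OcKO and 139.8 to 155 CPM in Control, Ssbp1 is the one other tested gene whose groups do not overlap, and Spata22 is at 0 throughout.

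Rpa2 encodes the RPA subunit that is phosphorylated after DNA damage. It lies at chr4:132768332-132778752 on the plus strand. OcKO libraries stood at 160.3, 174 and 184 CPM (173 ± 11.9) and Control libraries at 110.0, 153 and 184 CPM (149 ± 37.0). The groups overlapped, since the highest Control library reached the level of the highest OcKO library. The log2 fold change was 0.21 (SE 0.22, edgeR adjusted p = 0.814), and its 95% interval of -0.30 to 0.73 covers folds of 0.810 to 1.66. Of all tested genes, 38.3% had a higher log2 fold change.

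Rpa3 encodes the smallest subunit, needed to assemble the trimer. It lies at chr6:8255936-8259173 on the minus strand. OcKO libraries stood at 16.6, 32.4 and 27.4 CPM (25.5 ± 8.08) and Control libraries at 34.3, 21.7 and 24.2 CPM (26.7 ± 6.67). Both the lowest OcKO and the highest Control library lay outside the range of the other group, and the rest overlapped. The log2 fold change was -0.07 (SE 0.36, 95% interval -0.91 to 0.77, edgeR adjusted p = 0.972). Its sign was not stable: it was 0.10 with library size alone as scaling, 0.16 without OcKO replicate 1 and 0.15 without Control replicate 1.

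Nabp1 encodes SSB2, a ssDNA-binding subunit of SOSS. It lies at chr1:51465862-51478425 on the minus strand. OcKO libraries stood at 18.8, 12.8 and 13.4 CPM (15.0 ± 3.32) and Control libraries at 13.3, 2.66 and 10.8 CPM (8.92 ± 5.57). Control replicate 2 stood apart at the low end, and Control replicate 1 reached into the OcKO range. The log2 fold change was 0.75 (SE 0.62, 95% interval -0.70 to 2.20, edgeR adjusted p = 0.744). Without Control replicate 2 it was 0.35, the lowest value for Nabp1 in any of the 13 alternatives.

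Nabp2 encodes SSB1, the other ssDNA-binding subunit of SOSS, with a role in the repair of double-strand breaks. It lies at chr10:128401395-128411492 on the minus strand. OcKO libraries stood at 14.2, 18.7 and 25.3 CPM (19.4 ± 5.57) and Control libraries at 16.3, 14.6 and 16.4 CPM (15.8 ± 0.971). Control libraries lay close together, and OcKO libraries fell on both sides of them. The log2 fold change was 0.30 (SE 0.36, 95% interval -0.54 to 1.14, edgeR adjusted p = 0.846), and without OcKO replicate 3 it was 0.06. Nabp2 shares 153 exonic bases with Ankrd52 on the opposite strand, and the strand setting of the counting was not stated.

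Ints3 encodes the scaffold of SOSS and is also a subunit of Integrator, which processes small nuclear RNAs and terminates transcription. It lies at chr3:90391388-90433622 on the minus strand. OcKO libraries stood at 171, 151 and 206 CPM (176 ± 27.7) and Control libraries at 85.8, 111 and 163 CPM (119.9 ± 39.3). OcKO replicates 1 and 3 lay above all Control libraries, and OcKO replicate 2 lay below Control replicate 3. The log2 fold change was 0.55 (SE 0.27, 95% interval -0.07 to 1.18, edgeR unadjusted p = 0.0761, adjusted p = 0.516). Over the 13 alternatives it ran from 0.36 to 0.86, and the unadjusted p was under 0.05 in 3 of them, with adjusted p from 0.246 to 0.776.

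Inip, the small subunit of SOSS, belongs to a list of related genes and not to the 9. It stood at 71.3, 102 and 73.1 CPM in OcKO and 76.9, 61.3 and 62.8 CPM in Control, with overlapping groups (log2 fold change 0.30, SE 0.23, edgeR adjusted p = 0.736).

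Ssbp1 encodes the mitochondrial ssDNA-binding protein, which resembles the bacterial ssDNA-binding protein rather than RPA. It lies at chr6:40471352-40484700 on the plus strand. OcKO libraries stood at 35.7, 31.8 and 31.7 CPM (33.1 ± 2.26) and Control libraries at 16.6, 24.2 and 19.6 CPM (20.1 ± 3.82). Every OcKO library lay above every Control library, which held for none of the other 6 tested genes of the set and for 10.7% of all tested genes. The log2 fold change was 0.72 (SE 0.28, 95% interval 0.06 to 1.38, edgeR unadjusted p = 0.0372). Its adjusted p was 0.403, so Ssbp1 did not pass the test. An unadjusted p under 0.05 with a higher level in OcKO was reached by 1 of the 6 tested genes other than Rpa1, Ssbp1, and by 5.93% of all tested genes. The difference was positive in all 13 alternatives, from 0.59 to 0.90, with adjusted p from 0.191 to 0.632.

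Ssbp1 has a processed pseudogene, Gm12115, whose transcript is 97.8% identical over 447 bases, so reads could be split between them. Gm12115 held 9, 28 and 11 counts in OcKO and 2, 5 and 6 in Control, against 1565, 1448 and 1292 Ssbp1 counts in OcKO and 603, 919 and 682 in Control. Among the 13 mRNAs that mitochondrial DNA encodes, all log2 fold changes were positive (median 1.09). In 11 of them every OcKO library lay above every Control library, as in 10.7% of all tested genes. An unadjusted edgeR p under 0.05 with a higher level in OcKO was reached by 8, and by 5.93% of all tested genes. At an adjusted p under 0.05, edgeR called 0 of the 13 (0.143% of all tested genes). Limma voom called 0, and DESeq2 called 8, against 4.7% of the genes for which it gave an adjusted p.

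Meiob lies at chr17:24804382-24839787 on the plus strand. It held 42, 11 and 0 counts in OcKO and 0, 0 and 0 in Control, or 0.958, 0.242 and 0 CPM in OcKO. The filter left it out. The 53 OcKO counts are at least 16.6-fold higher than a floor of 3 counts over the Control group, but 42 came from OcKO replicate 1, and without it the bound is 5.25. Without the filter the edgeR adjusted p was 0.466, and OcKO replicate 3 matched Control at 0.

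Spata22 lies at chr11:73329741-73355913 on the plus strand, on the chromosome of Rpa1. It held 0 counts in all 6 libraries, which allows up to 0.0126 CPM over the pooled depth. Its deposited model shares 2175 of 3449 exonic bases with the olfactory receptor gene Olfr20, also at 0 in all 6, so reads from the shared bases may not have been assigned to either. In GENCODE M21 the identifier counted as Spata22 is named Gm49340, and its transcript is 100% identical to a Spata22 transcript over 1025 bases. The 0 counts thus hold for the deposited gene model as it was counted.

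Set against the whole table, the 6 tested genes other than Rpa1 showed no called increase. The share of tested genes called as higher in OcKO by edgeR was 0.137%, and 0 of these 6 were among them. Of the 6, 5 had positive log2 fold changes, as did 8152 of the 16060 tested genes. DESeq2 called 4.7% of the genes for which it gave an adjusted p, 749 genes, and of the 9 again Rpa1 alone. The intervals set the sizes that these libraries allow: the upper end was a 1.66-fold increase for Rpa2, 1.71-fold for Rpa3, 2.27-fold for Ints3, 2.60-fold for Ssbp1, 2.20-fold for Nabp2 and 4.60-fold for Nabp1.

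**Figure D2:**
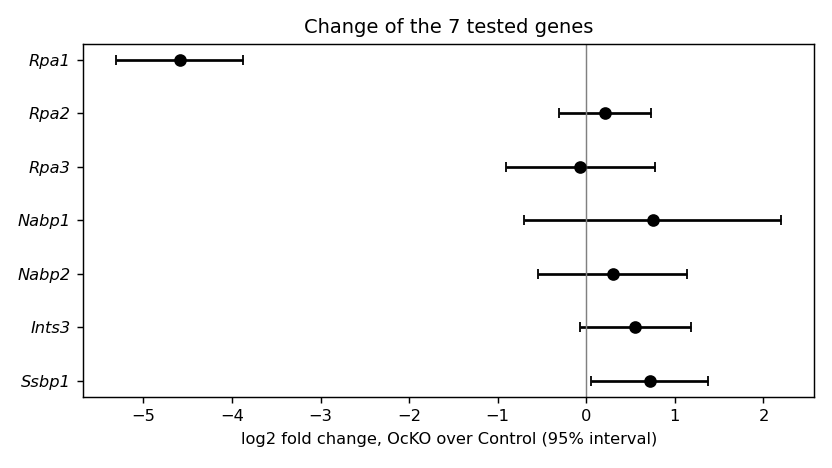
Log2 fold change of the 7 tested genes, OcKO over Control, from edgeR with its 95% interval (horizontal bars, n = 3 libraries a group, vertical line at no difference). Rpa1 stands at -4.59, the intervals of Rpa2, Rpa3, Nabp1, Nabp2 and Ints3 include 0, and that of Ssbp1 runs from 0.06 to 1.38 before any adjustment over genes.

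Under none of the 13 alternatives was any of these 6 genes called. Nabp1 moved most, between 0.35 and 1.16, and Rpa2 ran from 0.03 without Control replicate 1 to 0.41 without Control replicate 3.

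**Figure D3:**
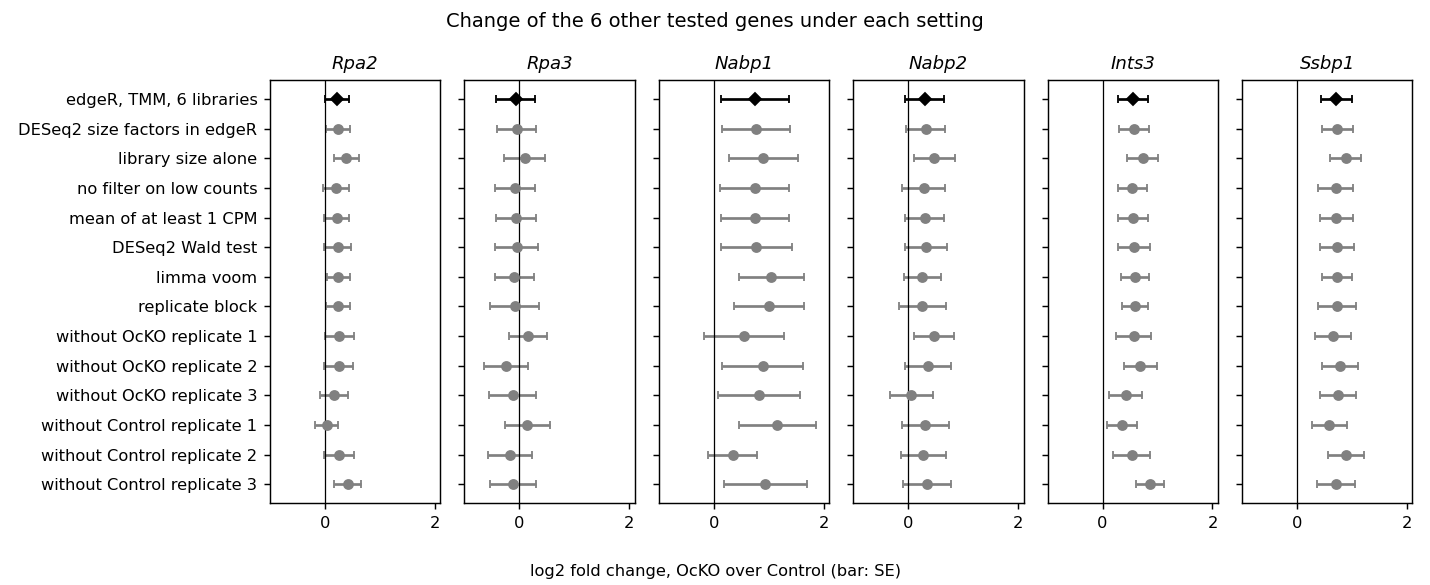
Log2 fold change, OcKO over Control, of the 6 tested genes other than Rpa1 under the reported fit (black diamond) and 13 alternatives (grey points), with the SE as bar and a line at 0. Ssbp1, Ints3, Nabp1, Nabp2 and Rpa2 stay to the right of 0 in every setting, and Rpa3 crosses it.

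Levels of different genes were compared as TPM, a unit in which counts are divided by the exon length of the deposited files and then scaled to the same total in each library. In OcKO the order was Rpa2 (179 ± 13.9 TPM), Ints3 (96.3 ± 17.1), Rpa3 (69.4 ± 21.3), Nabp2 (24.0 ± 7.21), Ssbp1 (12.3 ± 0.916), Nabp1 (5.48 ± 1.24) and Rpa1 (3.48 ± 1.10). In Control it was Rpa2 (139 ± 33.4 TPM), Rpa1 (75.5 ± 5.69), Rpa3 (66.6 ± 20.0), Ints3 (59.2 ± 19.7), Nabp2 (17.7 ± 2.01), Ssbp1 (6.72 ± 0.891) and Nabp1 (3.02 ± 1.96). Rpa2 led in all 6 libraries, and Rpa1 was second in the mean of Control and last in every OcKO library. The libraries of neighbours in this order did not overlap, except for Ints3 and Rpa3 in OcKO, and for Rpa1 and Rpa3, and Rpa3 and Ints3, in Control.

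The order depended in part on the length used. With the median length of the protein-coding transcripts, an alternative added after the data were seen, Ssbp1 stood at 50.8 ± 3.51 TPM in OcKO and 28.0 ± 4.08 TPM in Control, and Nabp1 at 25.2 ± 5.52 TPM in OcKO and 13.9 ± 8.96 TPM in Control. Ssbp1 then came above Nabp2 in OcKO (43.3 ± 13.6 TPM) and Rpa3 above Rpa1 in Control (59.6 ± 17.3 and 55.5 ± 3.93 TPM). Rpa2 stayed first in each library.

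The RPA subunits also differed in their proportions. Per length, Rpa2 exceeded Rpa1 by 38.5, 78.5 and 50.2 times in OcKO, against 1.32, 1.84 and 2.45 times in Control. Rpa3 exceeded Rpa1 by 10.5, 38.6 and 19.7 times in OcKO, and its ratio to Rpa1 was 1.08, 0.687 and 0.850 in Control. Both ratios have Rpa1 as denominator. With the median transcript length, Rpa2 over Rpa1 was 68.1, 139 and 88.7 in OcKO and 2.33, 3.25 and 4.32 in Control. Rpa2 over Rpa3, which does not hold Rpa1, was 3.66, 2.04 and 2.55 in OcKO and 1.22, 2.68 and 2.88 in Control, with overlap. The sum over the 8 genes other than Rpa1 was 387 ± 44.0 TPM in OcKO and 293 ± 46.4 TPM in Control, and with Rpa1 included it was 391 ± 43.8 TPM in OcKO and 368 ± 43.6 TPM in Control. Most of either sum was Rpa2, Ints3 and Rpa3, and the lengths above bear on it. TPM holds no TMM factor. As RPKM, counts per exon length on TMM-scaled library size, Rpa2 averaged 57.7 in OcKO and 49.8 in Control. Ints3 averaged 31.0 in OcKO and 21.1 in Control, and Rpa1 1.12 and 26.9. Rpa3 averaged 22.4 in OcKO and 23.5 in Control, the opposite direction to its TPM. The sums were not made on that scale, and their difference between groups depends on the scaling.

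**Figure D4:**
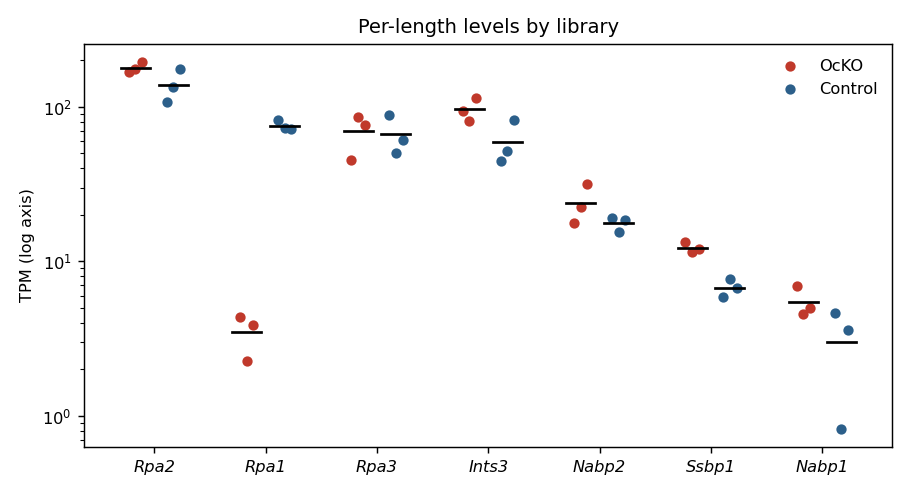
TPM of the 7 tested genes in each library (points, log axis, OcKO left of Control for each gene) with the group mean as a bar. Rpa2 is highest in both groups, and Rpa1 stands at 3.48 TPM on average in OcKO and 75.5 TPM in Control.

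The genes around these proteins were counted in 4 lists chosen with earlier results of these data known, beside a median log2 fold change of 0.01 over all tested genes. None of the tested members of these 4 lists was called by edgeR or limma voom. DESeq2 called 2 of them, Ctc1 as higher and Top3a as lower in OcKO. Over all genes for which it gave an adjusted p, DESeq2 called 4.7%. Over all tested genes, 10.7% showed no overlap with OcKO higher and 8.67% no overlap with OcKO lower. Of 20 other genes with OB folds or ssDNA binding, 6 had positive and 14 negative log2 fold changes (median -0.27), with 3 at an unadjusted p under 0.05, which 11.1% of all tested genes reached in either direction. The median was -0.04 with limma voom and with the replicate block, and -0.10 without Control replicate 2. Ctc1, the large subunit of the RPA-like CST complex at telomeres, stood at 63.1, 32.5 and 69.9 CPM in OcKO and 18.1, 4.24 and 22.8 CPM in Control. Its groups did not overlap (log2 fold change 1.87, SE 0.62, edgeR adjusted p = 0.296). BC030867, the OB-fold protein HROB that loads a helicase in recombination, stood at 226, 190.1 and 251 CPM in OcKO and 146, 167 and 176 CPM in Control (0.45, SE 0.18, adjusted p = 0.415). Its groups did not overlap either, and these were the only 2 such genes of the 20.

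RPA partners are proteins that RPA on ssDNA recruits or that act with it. Of 33 tested, 14 had positive and 19 negative log2 fold changes (median -0.08), with 1 at an unadjusted p under 0.05. The groups did not overlap in 1 of the 33 with OcKO higher and in 2 with OcKO lower. Timeless, a replication fork protein that binds RPA through its partner Tipin, stood at 95.2, 131 and 129 CPM in OcKO and 239, 236 and 140.2 CPM in Control, all OcKO libraries being lower (log2 fold change -0.79, SE 0.26, edgeR adjusted p = 0.294). Brip1, a helicase stimulated by RPA, stood at 61.7, 149 and 101 CPM in OcKO and 209, 136 and 173 CPM in Control, with overlap (-0.73, SE 0.34, adjusted p = 0.492).

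Integrator holds INTS3 among its subunits, so the other 13 tested subunits were counted. Of them 9 had positive and 4 negative log2 fold changes (median 0.14), with 2 at an unadjusted p under 0.05. Ints8 stood at 42.7, 41.0 and 50.5 CPM in OcKO and 111, 73.0 and 49.6 CPM in Control (log2 fold change -0.80, SE 0.32, edgeR adjusted p = 0.408). Ints11, the endonuclease of the complex, stood at 45.4, 47.2 and 62.4 CPM in OcKO and 27.8, 40.1 and 32.7 CPM in Control (0.62, SE 0.27, adjusted p = 0.445). Ints11 did not overlap between groups, as the only 1 of the 13, and Ints8 did. Ints8 shares 609 exonic bases with Ccne2 and Ints11 shares 697 with Pusl1, each on the opposite strand.

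The mitochondrial replisome copies mitochondrial DNA together with SSBP1. Of its 17 tested genes, 7 had positive and 10 negative log2 fold changes (median -0.08), with 3 at an unadjusted p under 0.05. The groups did not overlap in 1 of the 17 with OcKO higher and in 2 with OcKO lower. Top3a, a topoisomerase that separates mitochondrial genomes and also acts in the nucleus, stood at 115, 85.2 and 63.2 CPM in OcKO and 153, 168 and 153 CPM in Control, all OcKO libraries being lower (log2 fold change -0.85, SE 0.24, edgeR adjusted p = 0.234). Exog, a mitochondrial nuclease, stood at 3.65, 0.461 and 5.31 CPM in OcKO and 0.275, 0.0263 and 0.546 CPM in Control, with overlap (3.46, SE 1.40, adjusted p = 0.414). Primpol and Dna2 belong to this list and to the RPA partners.

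**Figure D5:**
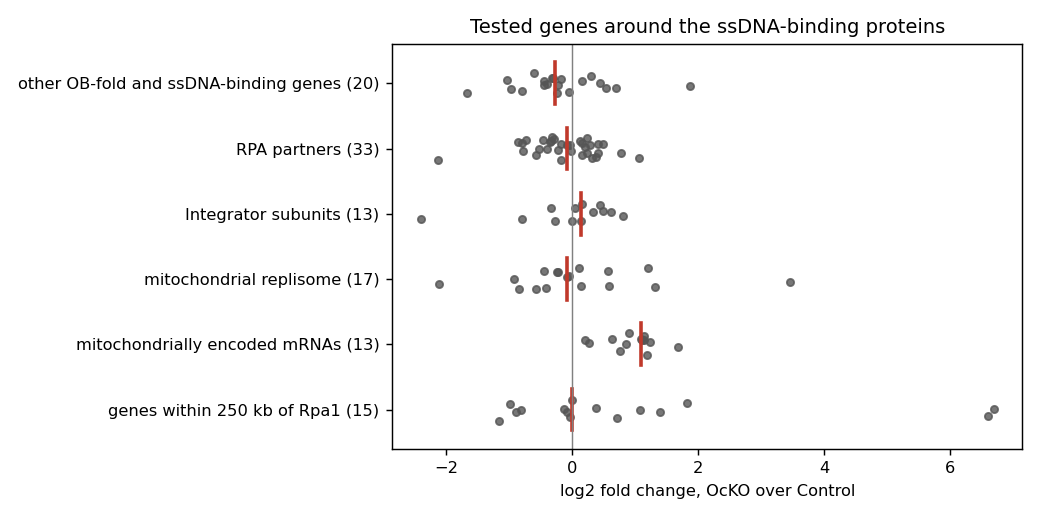
Log2 fold change, OcKO over Control, of the tested genes of each list (grey points, vertical jitter only for display, number of genes in parentheses) with the list median as a red bar. The medians of the 4 functional lists lie between -0.27 and 0.14, that of the mitochondrially encoded mRNAs at 1.09, and Dph1 and Ovca2 lie far right among the genes near Rpa1.

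Around Rpa1 itself, within 250 kb of either end, 15 of 28 genes were tested and none was called by edgeR, with 2 at an unadjusted p under 0.05, both higher (8 positive and 7 negative log2 fold changes, median 0.00). Smyd4, whose start faces that of Rpa1, did not pass edgeR's test (log2 fold change 0.38, SE 0.36, adjusted p = 0.783), nor did Gm12337, the next tested gene on that side (-0.02, SE 0.88, adjusted p = 0.997). On the other side, Dph1, which makes the diphthamide residue of a translation elongation factor, starts 107 kb from Rpa1. It stood at 9.69, 2.13 and 3.22 CPM in OcKO and 0.0275, 0.0790 and 0.0288 CPM in Control, with no overlap (log2 fold change 6.69, SE 1.19, edgeR adjusted p = 0.12). Ovca2, 119 kb away, held 136, 36 and 93 counts in OcKO and 1, 1 and 0 in Control. Its log2 fold change was 6.60 (SE 1.34, 95% interval 3.48 to 9.72, edgeR adjusted p = 0.12). The ratio of summed Ovca2 counts was 125 after scaling to library size (exact 95% counting interval 34.2 to 1034). That counting interval leaves out the spread between mice. Dph1 and Ovca2 share 969 exonic bases on the same strand, so reads from these bases cannot be told apart, and both were above all Control libraries without passing edgeR's test. DESeq2 called both as higher in OcKO and limma voom neither. These were 2 of the 15 neighbours, against 4.7% of the genes for which DESeq2 gave an adjusted p. Separation with OcKO higher was found in 3 of the 15 and in 10.7% of all tested genes. With OcKO lower it was found in 1 of the 15 and in 8.67% of all tested genes.

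The genes whose log2 CPM was most like that of Rpa1 over the 6 libraries were Fndc3b (Pearson r 0.991), Gmds (0.991) and Qars (0.989). Rpa1 has 2 separate clusters of libraries, so this likeness describes the split between genotypes: Fndc3b stood at 29.1, 28.3 and 31.8 CPM in OcKO and 61.9, 59.5 and 64.5 CPM in Control. Most like Rpa2 were Pex2 (r 0.992), Stxbp5 (0.987) and Shcbp1l (0.983), over the same 6 libraries. Stxbp5 stood at 17.2, 20.7 and 28.7 CPM in OcKO and 6.83, 14.0 and 24.5 CPM in Control, the same rank order of libraries as Rpa2. These genes were picked for r out of all tested genes, and r is given as a description.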

How the data were processed

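RNA of GV oocytes was measured in 6 libraries, 3 OcKO and 3 Control, grouped by the labels. The authors deposited raw gene counts, once as a table of all samples and once per sample, with the same values. Trimmomatic 0.36, STAR 2.5.2b and featureCounts (Subread 1.5.2) were used for trimming, alignment to GRCm38 and counting, per the submitters' processing notes. Which annotation, strand and multi-mapping settings they used is not given in the sources used here. Per the labels' protocols, the library kit was one for single cells or low input.

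Counts were fitted with edgeR 4.0.16 in R 4.3.3 (TMM, filterByExpr, glmQLFit, glmQLFTest, no covariate), with Benjamini-Hochberg adjustment over 16060 genes and calls at an adjusted p under 0.05. The SE is the absolute log2 fold change over the root of F, and 95% intervals use the t quantile of the test. TPM used deposited exon lengths. Alternatives were DESeq2 1.42.0, limma 3.58.1 (voom), other scaling and filters, a replicate block, each library left out, and other length measures. The fit was tested on simulated data. With 3 against 3 libraries an exact permutation test cannot give a p under 0.1, so none was used. Replicate differences hold those between mice, oocyte pools and library preparation. Bounds from a floor of 3 counts, and counting intervals, cover counting error only. Similar transcripts were sought with blastn 2.17.0 in GENCODE transcripts (at least 95% identity over 100 bases), and 99.3% of gene identifiers were found in that annotation.

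The genes and lists were chosen with earlier results of these data known. Named were all 9 genes, in each list the called genes or else the 2 with the smallest unadjusted p, the 2 nearest tested neighbours on each side of Rpa1, and the 3 tested genes most like Rpa1 and Rpa2. Inip, Rpain, Rtn4rl1, Ptgs2 and Has2 are named outside this rule, chosen after their values were seen. The values of 1 further list are not reported here.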

Additional observations from a re-analysis of the deposited data

How the results depend on the processing

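Among the 13 alternatives, the log2 fold changes of Rpa1, Rpa2, Nabp1, Nabp2, Ints3 and Ssbp1 kept their direction, and of the 9 genes none other than Rpa1 was called. Rpa3 took the opposite sign with library size alone (0.10), without OcKO replicate 1 (0.16) and without Control replicate 1 (0.15), and ran from -0.24 to 0.16 over the left-out libraries. The number of genes called over the whole table moved most: 23 in the reported fit, 749 with DESeq2 (477 higher and 272 lower), 1 with limma voom, 0 with the replicate block (edgeR, 813 higher and 563 lower at an unadjusted p under 0.05), and 0 to 5 with a library left out. Rpa1 ran from -4.78 to -4.33 with a library left out. Under the replicate block its log2 fold change was -4.63 (edgeR adjusted p = 0.159), no longer past the threshold. The labels do not say whether the mouse numbers pair the samples. Deviations of same-numbered libraries from their group means had correlations of -0.0370 to -0.0450 across genes. Those of libraries with other numbers had correlations of 0.0135 to 0.0309. Deviations sum to 0 within each group, so these correlations are tied together and cannot decide the pairing. The block changed no call among the 9 genes other than that of Rpa1. Library size alone as scaling moved the median of all tested genes to 0.18 and that of the RPA partners to 0.09. The causes of these shifts were not tested. RPKM in place of TPM gave the same order of the 7 genes in each library. Fits could not be made for Meiob where it stayed under the filter.

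At 36280148 counts, the shallowest library, a floor of 3 counts is 0.0827 CPM. Depth thus limits what can be said of Meiob in Control, and in OcKO the spread of 42, 11 and 0 counts does. Depth and the shared sequence limit what can be said of Spata22. For the 7 tested genes, with at least 101 counts in each library, the number of libraries limits precision.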

Other observations

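Rpain encodes the protein that carries RPA into the nucleus, and was looked at after its values were seen. It stood at 17.6, 28.4 and 16.5 CPM in OcKO and 9.28, 15.9 and 11.4 CPM in Control. Every OcKO library lay above every Control library, by a small margin, which held for 10.7% of all tested genes. The log2 fold change was 0.77 (SE 0.41, 95% interval -0.18 to 1.73, edgeR adjusted p = 0.566).

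Rtn4rl1, a Nogo receptor relative, is the nearest gene on the Dph1 side of Rpa1, 30.4 kb away, and was under the filter on low counts. It held 1, 42 and 81 counts in OcKO and 1, 2 and 1 in Control. OcKO replicate 1 stood at the Control level and the other 2 OcKO libraries above it, so the groups overlapped.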
